A study of Mus musculus with 24 samples.

Results

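Chemokines, interleukins and their receptors were followed in cultures of mOSE cells, that is, mouse ovarian surface epithelium, the cell layer that covers the ovary. The members are all rows whose gene symbol begins with Ccl, Ccr, Cxcl, Cxcr, Ackr or Il followed by a digit: 151 rows with 143 symbols in each table, out of 35687 rows in the spheroid table and 35688 rows in the Snail and BRCA1 tables. Poly(A)-selected RNA was sequenced from 24 libraries in 8 groups of 3. In the line m1102, TGFB1 spheroids (10 ng/mL TGFB1 for 4 days, then ultra-low-attachment plates), untreated spheroids, TGFB1 monolayers (10 ng/mL, with no duration in the labels) and untreated monolayers made up the first experiment of 12 libraries. The second experiment used the same line with a lentiviral Snail-overexpression construct or the lentiviral WPI control vector. The third used the line mOSE_BRCA1_fl, from BRCA fl/fl mice, infected with adenovirus carrying Cre (labelled BRCA1 ko) or GFP (labelled BRCA1 wt), as monolayers; the ko RNA was taken after the deletion had been checked, per the labels. All groups shared a-MEM with 4% FBS, 0.01 mg/mL ITSS and 2 ug/mL EGF, and the labels do not say whether m1102 is 1 clone.

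Chemokines are small secreted proteins that direct cell migration through G-protein-coupled receptors, and the atypical receptors (Ackr) bind chemokines without G-protein signalling and remove them from the surroundings. Interleukins act through paired receptor chains. IL-6 family cytokines bind a private chain and share gp130 (Il6st), and IL-1 itself uses Il1r1 with the accessory chain Il1rap. IL-4, IL-10 and IL-17 have shared chains of their own. In the ovary, these signals are known for their part in ovulation, which resembles local inflammation, and in the ascites of ovarian cancer.

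Levels are given in scaled TPM, the authors' TPM-like values with their own scaling per library, and are compared within 1 table only. A gene was tested where it reached 1 scaled TPM in at least 3 libraries of its table, which held for 53 of the 143 symbols in the spheroid experiment, for 39 with Snail and for 44 with BRCA1. Every library listed 0 for 22, 34 and 28 symbols in these experiments. Of 38 interleukin ligands 11 passed in the spheroid table, of 27 CC ligands 8, of 13 CXC ligands 5, of 21 chemokine receptors 6, and of 41 interleukin receptor and accessory chains 20. The log2 fold changes below, each with its standard error, are on the log2(scaled TPM + 1) scale and so understate changes of low genes. A call is an adjusted p under 0.05 in limma, with Benjamini-Hochberg adjustment over all genes tested.

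Several features of the libraries touch every result of the first experiment. All 6 monolayer titles, and no spheroid title, carry a mark of re-analysis, so culture and origin of the library cannot be told apart. The labels of untreated monolayers 1 and 2 cite 1 earlier sample, although their values differ, and no label tells whether libraries of 1 group came from different cultures; the spread behind each p-value may therefore be technical. Fewer cells of a type and less RNA per cell cannot be told apart in these bulk samples. The 10 ovarian surface and mesothelial markers summed to 228 to 432 in TGFB1 spheroids and 241 to 422 in untreated spheroids. In TGFB1 monolayers they summed to 759.7 to 1072, and in untreated monolayers to 1593 to 1684. Krt7 stayed at or below 3.42 in the spheroids, and Krt8 at or below 0.406 in all 12 libraries. Krt18 was not lost, with 322.6, 134.1 and 109.7 in TGFB1 spheroids and 81.3, 83.3 and 164.2 in untreated spheroids. It had 97.4, 114.8 and 117.2 in TGFB1 monolayers, and 196, 203.9 and 188.1 in untreated monolayers. Wt1 was 49.9 to 89.7 in the spheroids and 101.5 to 189.5 in the monolayers. The 14 leukocyte markers summed to 19.1 to 70.7, 23.4 to 73.0, 14.4 to 15.5 and 20.6 to 29.4 in those 4 groups, mostly Cd68, a lysosomal protein of macrophages, and Aif1, while Ptprc (CD45) was at most 0.124 and Adgre1 at most 0.0187. Of 8 endothelial markers, Cdh5 was 51.3, 32.8 and 23.9 in TGFB1 spheroids and at most 3.44 elsewhere, and Pecam1 at most 2.14. The 6 fibroblast markers summed to 425 to 1098, 270.0 to 285, 818.7 to 931 and 1517 to 1722. The part of other cell types in the results was not tested.

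The promoters of 5 ligands and 1 antagonist are shown first, because the results below turn on these genes or, for Cxcl2, its neighbour, and because they differ in which of 2 short motifs they hold. Each is the 250 bases before the RefSeq start site, 5′ to 3′ on the gene's strand, GRCm38.p6, in lower case with motif matches in capitals. The kB consensus, named here without its letters, was searched on both strands and was found in 2779 of 32851 promoters (8.46%), reading 250 bases before to 50 bases after each start, and in 20 of the 129 promoters of members (15.5%). TGANTCA, the AP-1 type element, which reads alike on both strands and does not overlap the kB matches printed here, was found in 2565 of those promoters (7.81%) and in 24 of the 129 (18.6%); its search, and the choice of interleukin promoters, came after values had been seen. Cxcl1 and Cxcl2 lie next to each other on chromosome 5 and hold the same pair of overlapping kB matches. Il6 holds a kB match and a TGANTCA match, and the other 3 hold TGANTCA. A match is a description of the letters and not of binding.
Cxcl1 (chr5:90890995-90891244, plus strand): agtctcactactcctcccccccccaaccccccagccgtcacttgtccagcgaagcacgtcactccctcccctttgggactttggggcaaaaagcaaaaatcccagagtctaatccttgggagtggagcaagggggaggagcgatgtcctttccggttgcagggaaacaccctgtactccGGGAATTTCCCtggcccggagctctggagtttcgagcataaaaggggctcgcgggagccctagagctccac
Cxcl2 (chr5:90903649-90903898, plus strand): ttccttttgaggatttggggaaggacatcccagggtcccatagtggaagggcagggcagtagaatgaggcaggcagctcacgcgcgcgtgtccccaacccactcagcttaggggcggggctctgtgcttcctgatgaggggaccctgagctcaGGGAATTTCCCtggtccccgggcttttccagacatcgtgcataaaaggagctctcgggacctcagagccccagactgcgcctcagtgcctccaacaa
Il6 (chr5:30012864-30013113, plus strand): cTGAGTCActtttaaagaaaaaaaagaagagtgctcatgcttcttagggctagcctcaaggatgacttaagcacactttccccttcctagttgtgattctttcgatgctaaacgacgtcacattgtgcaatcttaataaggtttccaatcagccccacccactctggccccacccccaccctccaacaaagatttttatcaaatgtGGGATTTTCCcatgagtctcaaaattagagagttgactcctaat
Il11 (chr7:4778142-4778391, minus strand): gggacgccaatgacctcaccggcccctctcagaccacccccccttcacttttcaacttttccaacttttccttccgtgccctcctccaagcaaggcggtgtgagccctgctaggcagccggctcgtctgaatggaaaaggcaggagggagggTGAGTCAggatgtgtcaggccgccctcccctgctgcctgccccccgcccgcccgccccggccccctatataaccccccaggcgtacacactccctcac
Il1a (chr2:129309973-129310222, minus strand): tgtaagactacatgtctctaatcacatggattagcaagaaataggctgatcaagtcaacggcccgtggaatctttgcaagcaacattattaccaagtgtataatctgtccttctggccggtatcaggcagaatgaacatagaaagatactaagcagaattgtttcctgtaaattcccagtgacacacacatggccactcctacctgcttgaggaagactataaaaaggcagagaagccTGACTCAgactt
Il1rn (chr2:24336610-24336859, plus strand): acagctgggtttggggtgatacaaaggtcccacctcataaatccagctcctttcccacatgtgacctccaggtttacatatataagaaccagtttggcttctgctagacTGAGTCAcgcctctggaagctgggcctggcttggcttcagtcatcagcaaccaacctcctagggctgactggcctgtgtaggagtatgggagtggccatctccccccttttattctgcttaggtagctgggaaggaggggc

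**Figure D1:**
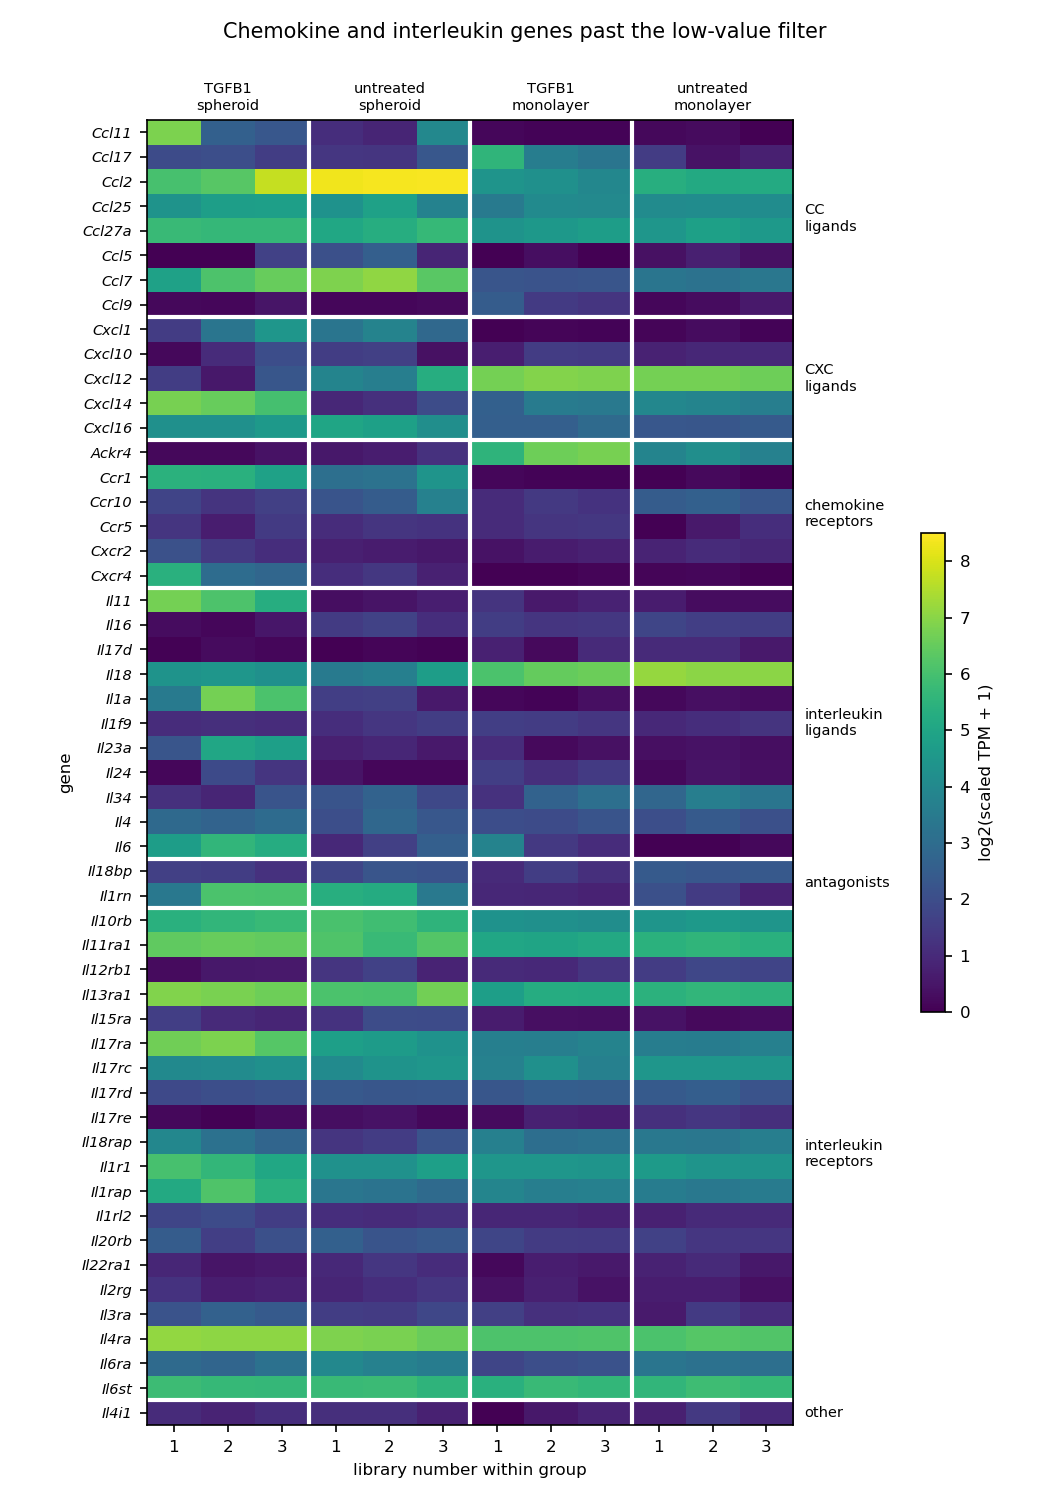
Level of each of the 53 tested chemokine and interleukin genes (rows, grouped by role) in the 12 libraries of the first experiment (columns, 3 per group), as log2(scaled TPM + 1) from 0 to 8.5. Ccl2 is brightest in untreated spheroids, Cxcl12, Ackr4 and Il18 are bright in monolayers, and Il11, Il1a and Il23a are bright in TGFB1 spheroids.

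Untreated spheroids held more Ccl2, Ccl7, Cxcl1 and Cxcl16 than untreated monolayers and less Cxcl12, Cxcl14, Il18 and Ackr4. The test called 26 of 53 members, 19 higher in untreated spheroids and 7 lower; of all 13509 genes 55.2% were called, 27.6% higher and 27.7% lower. The members' median log2 fold change was 0.34, against 0.01 for all genes.

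Ccl2, which draws monocytes through CCR2, had 316, 333 and 339 scaled TPM in untreated spheroids 1 to 3, against 39.0, 34.8 and 35.9 in untreated monolayers (log2 fold change 3.14 ± 0.34, adjusted p = 2.29e-05). Every spheroid library held more than every monolayer library, and the 3 libraries of a group lay close together. Ccl7, a neighbouring monocyte attractant, had 114, 136 and 79.8 in untreated spheroids, against 8.98, 8.2 and 9.31 in untreated monolayers (log2 fold change 3.46 ± 0.34, adjusted p = 1.1e-05). The genes stand side by side on chromosome 11, Ccl2 at 82035571 to 82037453, Ccl7 at 82045712 to 82047525 and Ccl11 at 82057823 to 82062955 (GRCm38, GENCODE M21). Ccl11, the eosinophil attractant eotaxin, was uneven: it had 1.18, 0.858 and 14.5 in untreated spheroids, against 0.137, 0.176 and 0 in untreated monolayers, and did not pass (log2 fold change 1.85 ± 1.07, adjusted p = 0.165).

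Cxcl1, which draws neutrophils through CXCR2 and whose kB-bearing promoter is printed above, had 8.9, 12.8 and 6.33 in untreated spheroids, against 0.0799, 0.222 and 0.0653 in untreated monolayers (log2 fold change 3.16 ± 0.56, adjusted p = 0.000665). The monolayers were near 0 throughout. Cxcl2, with the same kB letters, failed the filter at 0.748, 0.728 and 0.217 in untreated spheroids and was listed at 0, 0 and 0 in untreated monolayers. Cxcl16, a membrane-bound ligand of CXCR6, had 30.8, 27.6 and 17.4 in untreated spheroids, against 4.0, 3.89 and 4.25 in untreated monolayers (log2 fold change 2.34 ± 0.19, adjusted p = 3.2e-06).

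Cxcl12, the ligand of CXCR4 that retains cells in stromal niches, went the other way, with 13.2, 11.5 and 38.2 in untreated spheroids, against 104, 104 and 97.2 in untreated monolayers (log2 fold change -2.43 ± 0.45, adjusted p = 0.000848). Untreated spheroid 3 kept more of it than the other 2, yet less than any monolayer. Cxcl14, a chemokine of epithelia, had 0.918, 1.29 and 2.89 in untreated spheroids, against 14.2, 13.3 and 11.6 in untreated monolayers (log2 fold change -2.44 ± 0.31, adjusted p = 6.36e-05). Ackr4, the scavenger of CCL19, CCL21 and CCL25, had 0.474, 0.619 and 1.33 in untreated spheroids, against 13.4, 17.3 and 12.4 in untreated monolayers (log2 fold change -3.10 ± 0.29, adjusted p = 9.09e-06). All 3 genes were separated without overlap between the groups. Ccr1, a receptor of CCL5 and CCL7, had 7.57, 8.18 and 20.1 in untreated spheroids, against 0, 0.158 and 0.0415 in untreated monolayers (log2 fold change 3.48 ± 0.29, adjusted p = 3.98e-06).

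Among interleukin ligands, 1 of 11 was higher and 2 were lower. Il18, the IL-1 family cytokine that caspase-1 activates, had 10.1, 11.8 and 25.8 in untreated spheroids, against 142, 129.7 and 130.3 in untreated monolayers (log2 fold change -3.11 ± 0.27, adjusted p = 4.27e-06). Its receptor chain Il18rap fell by 1.82 on the log2 scale (standard error 0.30, adjusted p = 0.000465), so ligand and chain were both lower. The cytokine Il17d and the receptor Il17re changed by -0.81 ± 0.22 and -0.92 ± 0.17. Il6 had 0.967, 2.07 and 5.01 in untreated spheroids, against 0, 0 and 0.142 in untreated monolayers (log2 fold change 1.66 ± 0.62, adjusted p = 0.04), with 2 monolayer libraries listed at 0. Il1rn, the antagonist that occupies the IL-1 receptor, had 38.8, 36.8 and 9.87 in untreated spheroids, against 3.24, 1.78 and 0.749 in untreated monolayers (log2 fold change 3.21 ± 0.70, adjusted p = 0.00252). Without untreated spheroid 3 its log2 fold change was 3.82. That library also held less Cd68 than the other untreated spheroids (65.8, 62.2 and 14.2 in libraries 1 to 3). Cd68 is only 1 marker of the leukocyte list, and whether the 2 differences have a common source was not tested.

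Of 20 interleukin receptor and accessory chains, 10 were higher in untreated spheroids and 2 were lower. Il10rb, the shared chain of the IL-10 family, had 65.7, 58.7 and 45.5 in untreated spheroids, against 20.7, 22.8 and 20.5 in untreated monolayers (log2 fold change 1.35 ± 0.13, adjusted p = 1.01e-05). Il15ra, which presents IL-15, changed by 1.41 ± 0.24 log2. The other 8 higher chains, Il17ra, Il20rb, Il13ra1, Il11ra1, Il3ra, Il6ra, Il2rg and Il4ra, changed by 0.54 to 0.97. Il6st, the gp130 chain, had 53.6, 55.1 and 44.7 in untreated spheroids, against 47.8, 57.2 and 51.3 in untreated monolayers, and did not pass (log2 fold change -0.028 ± 0.12, adjusted p = 0.859). In fits that left out 1 library, 4 calls could be lost: Ccl5 without untreated monolayer 1 (adjusted p = 0.0888), Il2rg without untreated monolayer 3 (0.154), Il3ra without untreated monolayer 1 (0.198) and Il6 without untreated spheroid 3 (0.136), each p being the highest over these fits. These 4 were also lost in some other settings. The other 22 were called in every fit that tested them, but Il17re and Il17d, low in spheroids, reached the filter in only 3 and 4 of the 6 fits without 1 library. Ccl27a and Il11ra1 overlap by 8 bases on opposite strands of chromosome 4 and have near-identical copies. Whether the stranded kit's information was used in counting is not given in the sources used here, so the values of this pair are uncertain.

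TGFB1 in monolayers was followed by fewer changes. Of 53 members 10 were called, 4 higher and 6 lower in TGFB1 monolayers, when 16.9% of all genes were called, 9.12% higher and 7.79% lower; the members' median was -0.08, against 0.01 for all genes. Without any 1 of the 6 libraries the count was 4 to 6, beside 5.15% to 6.6% of all genes called higher and 3.87% to 6.16% lower.

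Ackr4 had 45.0, 97.5 and 108 in TGFB1 monolayers, against 13.4, 17.3 and 12.4 in untreated monolayers (log2 fold change 2.38 ± 0.29, adjusted p = 0.000631). Ccl17, a ligand of CCR4 on T cells, had 45.7, 11.2 and 8.79 in TGFB1 monolayers, against 1.87, 0.319 and 0.667 in untreated monolayers (log2 fold change 3.27 ± 0.53, adjusted p = 0.00265). TGFB1 monolayer 1 stood apart in both, lower than the others in Ackr4 and higher in Ccl17, whose log2 fold change without it was 2.57. Ccl9, a CCR1 ligand known from the mouse, had 4.53, 1.73 and 1.47 in TGFB1 monolayers, against 0.11, 0.217 and 0.502 in untreated monolayers (log2 fold change 1.40 ± 0.28, adjusted p = 0.00656). Ccl9 passed the filter only through the TGFB1 monolayers, where it was high, and was tested in only 3 of the 6 fits without 1 library. Il6 had 12.9, 1.64 and 1.11 in TGFB1 monolayers, against 0, 0 and 0.142 in untreated monolayers (log2 fold change 2.03 ± 0.62, adjusted p = 0.0462), and without TGFB1 monolayer 1 its change was 1.18 log2 and lost the call (adjusted p = 0.103).

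The 6 that fell were receptors or soluble binders. Il6ra, the private chain for IL-6, had 2.39, 3.11 and 3.46 in TGFB1 monolayers, against 8.96, 8.0 and 7.68 in untreated monolayers (log2 fold change -1.22 ± 0.15, adjusted p = 0.000675). Il18bp, which neutralizes IL-18, had 1.04, 1.9 and 1.22 in TGFB1 monolayers, against 4.34, 3.93 and 4.2 in untreated monolayers (log2 fold change -1.13 ± 0.18, adjusted p = 0.00217). Both separated the groups without overlap. Ccr10, a receptor of CCL27 and CCL28, had 1.09, 1.63 and 1.35 in TGFB1 monolayers, against 4.53, 5.11 and 3.79 in untreated monolayers (log2 fold change -1.21 ± 0.32, adjusted p = 0.0269), and lost the call in each of the 6 fits without 1 library (adjusted p up to 0.0952, without TGFB1 monolayer 1). Il17re (tested in 3 of these fits), Il17rc and Il11ra1 changed by -0.63 ± 0.17, -0.56 ± 0.15 and -0.42 ± 0.12, and each lost the call in some of these fits, with adjusted p up to 0.116 and 0.119 without TGFB1 monolayer 1 and 0.113 without untreated monolayer 2. Ccl2 and Ccl7 did not pass (-1.04 ± 0.34 and -1.07 ± 0.34, adjusted p = 0.06 and 0.0529), though all TGFB1 monolayers were below all untreated ones for both.

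In spheroids, TGFB1 was accompanied by high Il11, Cxcl14, Il1a, Il6 and Il23a and by more Il1rap, Il1r1 and Il17ra, with less Cxcl12 and Ccl2. Of 53 members 24 were called, 17 higher and 7 lower in TGFB1 spheroids, when 35.6% of all genes were called, 18.8% higher and 16.8% lower. Equal library sums moved the median of all genes by -0.18 log2 and gave 14 higher and 12 lower, beside 11.8% and 27.8% of all genes. The members' median was 0.10, against 0.003 for all genes.

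Il11, an IL-6 family cytokine known as a TGF-beta target in fibroblasts, had 104, 69.1 and 38.3 in TGFB1 spheroids, against 0.251, 0.359 and 0.623 in untreated spheroids (log2 fold change 5.56 ± 0.31, adjusted p = 6.68e-07). Every TGFB1 spheroid was above every other library of the experiment. Il11 passed the filter mainly through the TGFB1 spheroids, where it was high, since elsewhere it reached 1 only in TGFB1 monolayer 1. Il6 had 25.6, 47.0 and 37.0 in TGFB1 spheroids, against 0.967, 2.07 and 5.01 in untreated spheroids (log2 fold change 3.46 ± 0.62, adjusted p = 0.00175). Il1a, the IL-1 alarmin whose promoter holds TGACTCA close to its start, had 10.4, 105 and 67.1 in TGFB1 spheroids, against 2.0, 2.04 and 0.503 in untreated spheroids (log2 fold change 4.18 ± 0.64, adjusted p = 0.000731). Il23a, the p19 subunit of IL-23, had 3.7, 31.5 and 27.1 in TGFB1 spheroids, against 0.683, 0.88 and 0.501 in untreated spheroids (log2 fold change 3.27 ± 0.58, adjusted p = 0.00167). TGFB1 spheroid 1 was lowest in the last 2 genes: without it the log2 fold changes were 5.15 for Il1a and 4.17 for Il23a, and without TGFB1 spheroid 2 that of Il1a was 3.54.

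Il1rn had 9.57, 67.5 and 66.4 in TGFB1 spheroids, against 38.8, 36.8 and 9.87 in untreated spheroids, so the groups overlapped and the gene did not pass (log2 fold change 0.53 ± 0.70, adjusted p = 0.588). Its low libraries, TGFB1 spheroid 1 and untreated spheroid 3, were also the spheroids with the least Cd68 (11.6, 62.5 and 51.9 in TGFB1 spheroids, against 65.8, 62.2 and 14.2 in untreated spheroids). Cd68 is 1 of 14 leukocyte markers, of which 2 had a mean of at least 1 in each spheroid group. Ptprc and Adgre1 stayed low, as given above, and a common source of the Il1rn and Cd68 differences was not tested. Il16, a T-cell attractant, was the 1 interleukin ligand that fell, with 0.214, 0.102 and 0.441 in TGFB1 spheroids, against 1.8, 2.23 and 1.15 in untreated spheroids (log2 fold change -1.11 ± 0.18, adjusted p = 0.000982).

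Of the receptors, Il17ra, the common IL-17 chain, had 100.1, 111 and 76.4 in TGFB1 spheroids, against 26.9, 24.3 and 19.1 in untreated spheroids (log2 fold change 1.98 ± 0.15, adjusted p = 6.31e-06). Il1rap, the accessory chain for IL-1, IL-33 and IL-36, had 35.2, 69.8 and 41.6 in TGFB1 spheroids, against 9.03, 8.45 and 6.71 in untreated spheroids (log2 fold change 2.41 ± 0.21, adjusted p = 1.69e-05). Il1r1, the signalling IL-1 receptor, had 64.9, 48.5 and 32.8 in TGFB1 spheroids, against 18.9, 18.9 and 26.5 in untreated spheroids (log2 fold change 1.11 ± 0.21, adjusted p = 0.00229). No TGFB1 spheroid overlapped an untreated one in these 3 chains. Il18rap, on chromosome 1 in a row with Il1r1, changed by 1.62 ± 0.30, and Il1rl2, the IL-36 receptor, by 0.64 ± 0.14. Il6ra fell by 0.79 log2 (standard error 0.15, adjusted p = 0.00256), while Il6st had 56.4, 50.3 and 49.8 in TGFB1 spheroids, against 53.6, 55.1 and 44.7 in untreated spheroids, and did not pass (log2 fold change 0.031 ± 0.12, adjusted p = 0.856).

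**Figure D2:**
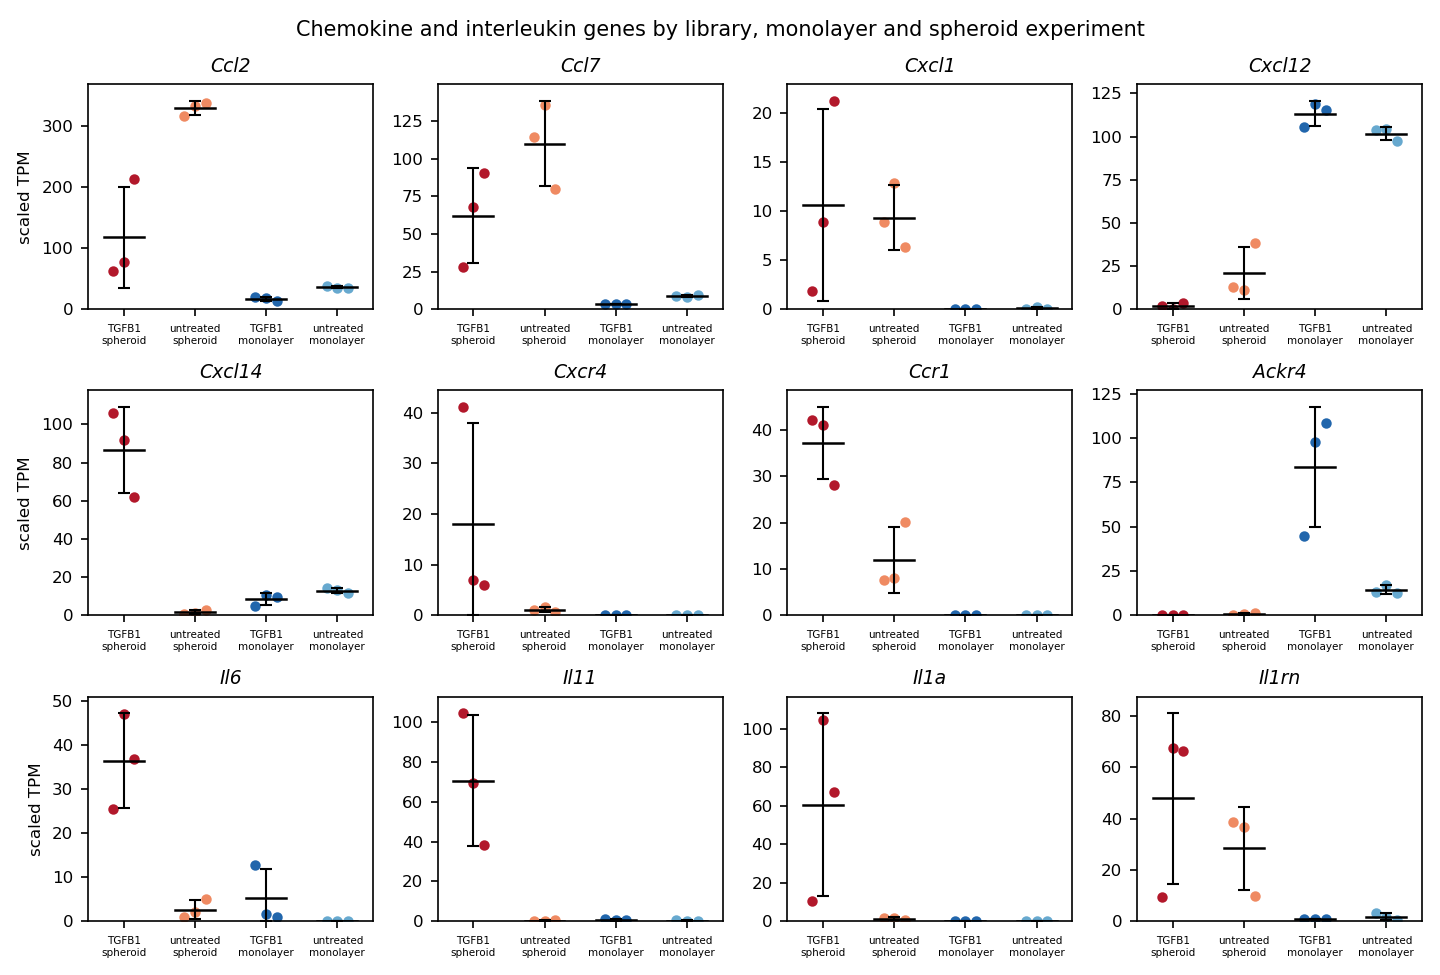
Scaled TPM of 12 genes in each library of the first experiment (points); lines are group means and bars 1 SD (n = 3), drawn no lower than 0. Il11 lies between 38.3 and 104 in TGFB1 spheroids and at or below 1.41 in the other 9 libraries, and Ackr4 is high in TGFB1 monolayers.

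Cxcl14 had 106, 91.9 and 62.1 in TGFB1 spheroids, against 0.918, 1.29 and 2.89 in untreated spheroids (log2 fold change 5.05 ± 0.31, adjusted p = 1.31e-06). The TGFB1 spheroids lay above the untreated ones throughout. The ligand and the receptor of the CXCL12 axis changed in opposite directions. Cxcl12 had 1.88, 0.445 and 3.82 in TGFB1 spheroids, against 13.2, 11.5 and 38.2 in untreated spheroids (log2 fold change -2.81 ± 0.45, adjusted p = 0.000896). Cxcr4 had 41.1, 7.05 and 5.99 in TGFB1 spheroids, against 1.17, 1.61 and 0.70 in untreated spheroids (log2 fold change 2.65 ± 0.53, adjusted p = 0.00315). All TGFB1 spheroids were above all untreated ones, but library 1 held most Cxcr4, and without it the log2 fold change was 1.82.

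Ccr1 had 42.1, 41.1 and 28.2 in TGFB1 spheroids, against 7.57, 8.18 and 20.1 in untreated spheroids (log2 fold change 1.67 ± 0.29, adjusted p = 0.00165). Ccl2 had 63.5, 78.1 and 213 in TGFB1 spheroids, against 316, 333 and 339 in untreated spheroids (log2 fold change -1.68 ± 0.34, adjusted p = 0.00338), and so fell without overlap. Its neighbour Ccl7 had 27.9, 68.3 and 90.5 in TGFB1 spheroids, against 114, 136 and 79.8 in untreated spheroids, overlapped and did not pass (log2 fold change -0.93 ± 0.34, adjusted p = 0.0524). Ccl11 had 111, 5.16 and 3.95 in TGFB1 spheroids, against 1.18, 0.858 and 14.5 in untreated spheroids (log2 fold change 1.92 ± 1.07, adjusted p = 0.185): TGFB1 spheroid 1 held nearly all of it. Cxcl1 had 1.85, 8.95 and 21.2 in TGFB1 spheroids, against 8.9, 12.8 and 6.33 in untreated spheroids, with TGFB1 spheroid 1 lowest, and did not pass (log2 fold change -0.22 ± 0.56, adjusted p = 0.785). The groups of Ccl7, Ccl11 and Cxcl1 overlapped. Ccr10 had 2.34, 1.41 and 2.05 in TGFB1 spheroids, against 3.59, 4.54 and 12.2 in untreated spheroids (log2 fold change -1.26 ± 0.32, adjusted p = 0.0119).

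The remaining 7 called members, Cxcr2, Il3ra, Il13ra1, Il11ra1, Il4ra, Il12rb1 and Il18bp, changed by -0.80 to 0.89. Il13ra1 was the only called member whose groups overlapped in this comparison, and the share of all called genes that overlapped is not given here. In the fits without 1 library, 6 calls could be lost: Ccr10 (0.0512), Il11ra1 (0.0589) and Il3ra (0.0839) without TGFB1 spheroid 2, and Il12rb1 (0.0531), Il13ra1 (0.157) and Il18bp (0.0851) without untreated spheroid 2, given as the highest adjusted p. With equal library sums Il11ra1, Il13ra1 and Il4ra lost theirs (adjusted p = 0.147, 0.212 and 0.234), and Cxcr2 lost its call with only the 6 spheroid libraries fitted (0.0708). The other 16 calls remained in all settings tried.

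In TGFB1 spheroids against TGFB1 monolayers 36 of 53 members were called, 28 higher and 8 lower, when 51.9% of all genes were called, 25.3% higher and 26.5% lower. Equal sums moved the median of all genes by -0.17 log2 and gave 28 higher and 10 lower, beside 17.9% and 36.3% of all genes. The members' median was 0.77, against 0.004 for all genes. Ackr4 had 0.145, 0.133 and 0.335 in TGFB1 spheroids, against 45.0, 97.5 and 108 in TGFB1 monolayers (log2 fold change -6.04 ± 0.29, adjusted p = 7.58e-08). Cxcl12 had 1.88, 0.445 and 3.82 in TGFB1 spheroids, against 105, 119 and 116 in TGFB1 monolayers (log2 fold change -5.39 ± 0.45, adjusted p = 3.04e-06). Ccr1 had 42.1, 41.1 and 28.2 in TGFB1 spheroids, against 0.0997, 0.0679 and 0.0525 in TGFB1 monolayers (log2 fold change 5.13 ± 0.29, adjusted p = 2.22e-07). For none of these 3 genes did the groups overlap.

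Il1rn had 9.57, 67.5 and 66.4 in TGFB1 spheroids, against 0.931, 0.883 and 0.766 in TGFB1 monolayers (log2 fold change 4.30 ± 0.70, adjusted p = 0.00041; 5.19 without TGFB1 spheroid 1). Ccl11 changed by 3.81 ± 1.07, and by 2.37 without TGFB1 spheroid 1, 4.46 without library 2 and 4.62 without library 3. The changes of Il1a, Il11, Cxcr4, Ccl7, Il23a and Cxcl14 were 5.25 ± 0.64, 5.16 ± 0.31, 3.70 ± 0.53, 3.60 ± 0.34, 3.45 ± 0.58 and 3.23 ± 0.31. Without TGFB1 spheroid 1 those of Il1a, Cxcr4, Il23a and Cxcl1 were 6.22, 2.87, 4.34 and 3.83. Cxcl1, 3.04 ± 0.56 in the whole fit, was 2.35 without TGFB1 spheroid 3, and Il1a 4.61 without TGFB1 spheroid 2. Without TGFB1 monolayer 1, Il6 changed by 3.95 in place of 3.10, and Ccl17 by -1.61 in place of -2.30. Calls lost in some fits were those of Ccl25 (0.0794) without TGFB1 monolayer 1, Il12rb1 (0.093) without TGFB1 monolayer 3, Il15ra (0.091) without TGFB1 spheroid 1 and Il17rd (0.0709) without TGFB1 monolayer 2, as highest adjusted p.

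The interaction asks whether the TGFB1 change differed between spheroids and monolayers. It was called for 20 of 53 members, 15 positive (a higher log2 change in spheroids) and 5 negative, when 15.8% of all genes were called, 8.72% positive and 7.11% negative. Equal sums moved the median of all genes by -0.21 log2 and gave 11 positive and 7 negative, beside 5.41% and 14.2% of all genes. The members' median was 0.39, against -0.01 for all genes.

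Cxcl14 had the largest interaction of the members. In spheroids the TGFB1 change was 5.05 ± 0.31 log2, and in monolayers, where it had 5.05, 10.7 and 9.77 with TGFB1 against 14.2, 13.3 and 11.6 without, it was -0.61 ± 0.31, which did not pass; the difference of the changes was 5.67 ± 0.43 (adjusted p = 2.05e-05). Il11 had 1.41, 0.507 and 0.753 in TGFB1 monolayers, against 0.566, 0.209 and 0.223 in untreated monolayers, and an interaction of 5.07 ± 0.44 (adjusted p = 5.17e-05). Il17ra had an interaction of 1.91 ± 0.21 (adjusted p = 0.000268), Il1rap of 2.18 ± 0.29 (0.000918), Il1a of 4.26 ± 0.90 (0.00994) and Il18rap of 1.78 ± 0.43 (0.018). Without TGFB1 spheroid 1 that of Il1a was 5.23, and without TGFB1 spheroid 2 it was 3.62. The negative side held Ackr4, with an interaction of -2.94 ± 0.42 (adjusted p = 0.00123), Cxcl12 with -2.96 ± 0.63 (0.01) and Ccl17 with -3.07 ± 0.75 (0.0192; -2.37 without TGFB1 monolayer 1). Ackr4 and Ccl17 had risen in TGFB1 monolayers, and Cxcl12 had fallen in TGFB1 spheroids.

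Whichever library was left out, and in the other settings tried at a threshold of 0.05, 9 of the 20 interactions remained called: Ackr4, Cxcl12, Cxcl14, Il11, Il11ra1, Il17ra, Il18rap, Il1a and Il1rap. At a threshold of 0.01 Il18rap was not called (adjusted p = 0.018). The others lost the call in 1 to 10 of these fits. As highest adjusted p these were Ccl9 (0.1), Cxcr4 (0.0705) and Il1r1 (0.0665) without untreated monolayer 1, Ccl17 (0.0507), Cxcr2 (0.0701) and Il4ra (0.107) without untreated monolayer 2, Il16 (0.0884) without untreated monolayer 3, Ccr1 (0.0592), Il1rl2 (0.102) and Il23a (0.0688) without TGFB1 spheroid 2, and Il13ra1 (0.067) without untreated spheroid 1. Leaving out TGFB1 spheroid 1 moved Cxcr4 to 1.86 and Il23a to 3.96. Ccl9, which passed the filter only through the TGFB1 monolayers, was tested in only 9 of the 12 fits without 1 library.

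**Figure D3:**
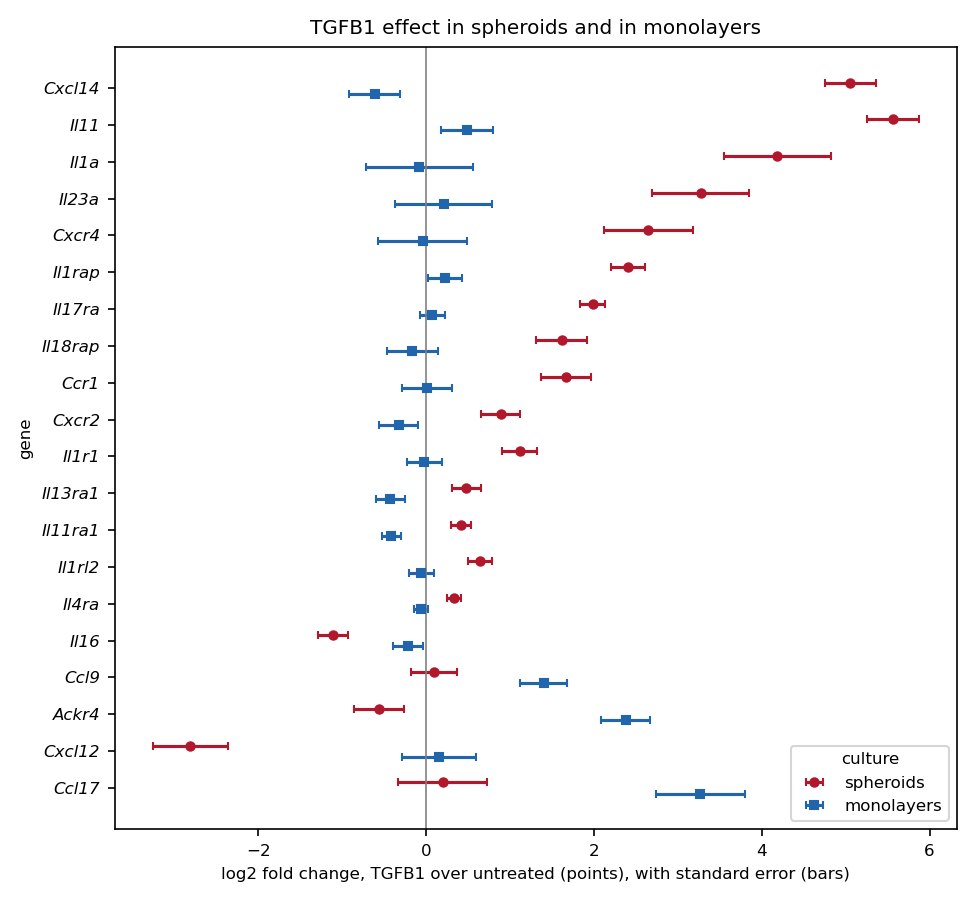
TGFB1 change (log2 fold change over untreated, points, with standard error bars) of the 20 members called in the interaction, in spheroids (circles, drawn above) and monolayers (squares). Il11 and Cxcl14 lie beyond 5 in spheroids, Cxcl12 lies near -2.81 there, and Ackr4 and Ccl17 lie at 2.38 and 3.27 in monolayers.

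Other genes of these pathways, 52 in a list, were read beside the members. In TGFB1 against untreated spheroids 13 of 42 tested were higher and 7 lower, beside 18.8% and 16.8% of all genes; equal sums gave 11 higher and 9 lower, and without 1 library 15 to 19 were called. Clcf1, a cytokine of the IL-6 family, had 102, 88.1 and 69.5 in TGFB1 spheroids, against 30.6, 30.5 and 34.8 in untreated spheroids (log2 fold change 1.40 ± 0.14, adjusted p = 5.06e-05). Osmr, the oncostatin M receptor, had 57.2, 53.3 and 42.0 in TGFB1 spheroids, against 17.8, 20.5 and 24.5 in untreated spheroids (log2 fold change 1.24 ± 0.17, adjusted p = 0.000396). Their interactions with culture were 1.51 ± 0.20 and 1.89 ± 0.24 (adjusted p = 0.00079 and 0.000732); of the list 11 interactions were positive and 2 negative, beside 8.72% and 7.11% of all genes, and equal sums gave 9 and 4.

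Csf2rb, the common beta chain for IL-3, IL-5 and GM-CSF, had 3.29, 8.16 and 11.2 in TGFB1 spheroids, against 0.355, 0.0505 and 0.0218 in untreated spheroids (log2 fold change 2.79 ± 0.31, adjusted p = 0.000104). Csf2rb passed the filter only through the TGFB1 spheroids, where it was high. Socs2 and Irak2 changed by 1.46 ± 0.31 and 1.35 ± 0.15. Pf4, the platelet chemokine CXCL4, had 0, 0 and 1.87 in TGFB1 spheroids, against 4.14, 3.11 and 3.37 in untreated spheroids (log2 fold change -1.67 ± 0.34, adjusted p = 0.00332). It was listed at 0 in all 6 monolayers and passed the filter mainly through the untreated spheroids, where it was high. Lif had 6.08, 47.7 and 41.3 in TGFB1 spheroids, against 7.84, 11.4 and 8.21 in untreated spheroids (log2 fold change 1.28 ± 0.57, adjusted p = 0.102), with TGFB1 spheroid 1 low as it was for Il1a, Il23a and Il1rn. Stat3 and Socs3 did not pass in this comparison (-0.047 ± 0.14 and 0.13 ± 0.22; adjusted p = 0.826 and 0.686).

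In TGFB1 against untreated monolayers 2 of 42 were higher and 6 lower, beside 9.12% and 7.79% of all genes. Equal sums gave 4 higher and 4 lower, and the 8 calls became 2 without untreated monolayer 1 or 2, 3 without TGFB1 monolayer 1 and 4 without untreated monolayer 3. Socs3, the feedback inhibitor of gp130 signalling, had 8.89, 16.1 and 16.3 in TGFB1 monolayers, against 34.9, 42.5 and 39.7 in untreated monolayers (log2 fold change -1.48 ± 0.22, adjusted p = 0.00156). Stat3, the transcription factor under gp130, had 69.6, 97.9 and 106 in TGFB1 monolayers, against 141, 148 and 124 in untreated monolayers (log2 fold change -0.60 ± 0.14, adjusted p = 0.0166). Osmr fell too, by 0.65 log2 (standard error 0.17, adjusted p = 0.0258). The other lower calls were Casp1, Socs5 and Stat5b (-0.95 ± 0.24, -0.83 ± 0.24 and -0.49 ± 0.14). The higher calls were Irak2 and Gnai2 (0.58 ± 0.15 and 0.45 ± 0.098). Without untreated monolayer 1 or 2 only 1 lower call remained, so at most 1 of Osmr, Stat3 and Socs3 kept its call there.

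In untreated spheroids against untreated monolayers 17 of 42 were higher and 4 lower, beside 27.6% and 27.7% of all genes; without 1 library 17 to 22 were called. Cx3cl1, the membrane-bound chemokine fractalkine, had 67.3, 62.9 and 157 in untreated spheroids, against 31.6, 34.3 and 34.1 in untreated monolayers (log2 fold change 1.36 ± 0.34, adjusted p = 0.00519), with untreated spheroid 3 highest. Lifr, the LIF receptor, had 18.4, 19.6 and 16.0 in untreated spheroids, against 5.95, 7.38 and 7.08 in untreated monolayers (log2 fold change 1.28 ± 0.21, adjusted p = 0.00045). Tslp, Jak3, Arrb1 and Arrb2 changed by 1.27 to 1.33, and Irak2 and Socs1 by -1.30 ± 0.15 and -1.21 ± 0.20.

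With Snail overexpression the test called few members. Snai1, the gene overexpressed, had 233.6, 194.9 and 193.4 in Snail libraries, against 13.7, 10.1 and 9.81 in WPI libraries. Of 39 members tested 1 was called, in a comparison that called 1.72% of all genes, 0.572% higher and 1.14% lower. At an unadjusted p under 0.05 in limma there were 9, 6 higher and 3 lower. The share of all genes at that unadjusted threshold is not given, here or below, so these counts have no background to be set against. The members' median was 0.08, against 0.01 for all genes.

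Ccl7 had 17.0, 16.4 and 15.4 in Snail libraries, against 11.7, 9.32 and 7.91 in WPI libraries (log2 fold change 0.71 ± 0.13, adjusted p = 0.0438). All Snail libraries were above all controls, but the call was lost in 5 of 6 fits without 1 library (adjusted p up to 0.16, without Snail 2; it remained without WPI 1), with equal library sums (0.0511), without the filter (0.16) and with a block for the library number (0.0918). Il11ra1 had 49.9, 49.9 and 52.1 in Snail libraries, against 32.9, 40.9 and 39.6 in WPI libraries (log2 fold change 0.42 ± 0.086, adjusted p = 0.0667), and did not pass. Cxcl14 had 20.1, 17.7 and 14.9 in Snail libraries, against 12.5, 11.7 and 11.4 in WPI libraries (log2 fold change 0.52 ± 0.11, adjusted p = 0.0724), and did not pass either, though neither gene overlapped between the groups. The authors' deposited table gave these 3 members q-values under 0.05: 0.000127 for Ccl7, 0.000967 for Cxcl14 and 0.00567 for Il11ra1.

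Neighbouring Ccl2 had 75.1, 54.5 and 53.2 in Snail libraries, against 77.5, 46.1 and 39.0 in WPI libraries, overlapped and did not pass (log2 fold change 0.21 ± 0.24, adjusted p = 0.785). Cxcl12 had 95.9, 125 and 110.0 in Snail libraries, against 60.0, 84.6 and 97.7 in WPI libraries (log2 fold change 0.46 ± 0.17, adjusted p = 0.264). Il18 had 114, 115 and 102 in Snail libraries, against 119.6, 108 and 123 in WPI libraries (log2 fold change -0.081 ± 0.071, adjusted p = 0.693). Of the 36 pathway genes tested only Cx3cl1 was called, beside 1.72% of all genes, and it lost the call in 4 of the 6 fits without 1 library: it had 33.5, 31.7 and 34.8 in Snail libraries, against 57.7, 66.8 and 49.4 in WPI libraries (log2 fold change -0.77 ± 0.11, adjusted p = 0.0204).

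**Figure D4:**
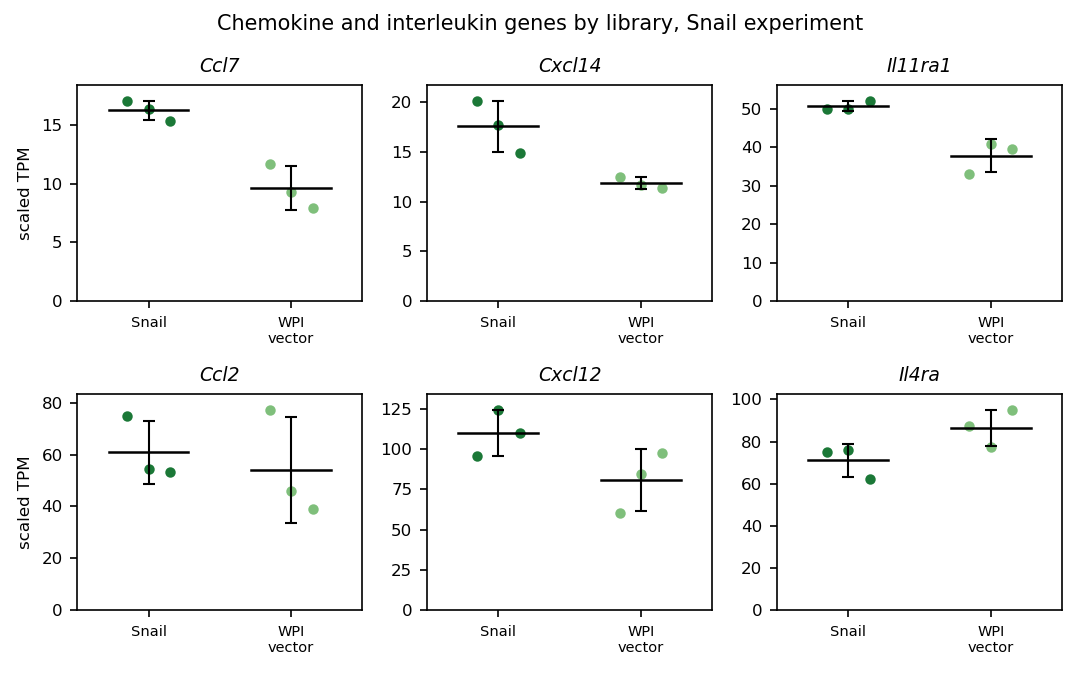
Scaled TPM of 6 genes in each Snail and WPI library (points), with group means (lines) and 1 SD (bars, n = 3). Ccl7, the only called member, lies between 15.4 and 17.0 in Snail libraries and between 7.91 and 11.7 in WPI libraries.

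In the BRCA1 experiment the label could not be read from the gene itself. Brca1 had 5.34, 11.1 and 4.09 scaled TPM in libraries labelled BRCA1 ko, against 4.27, 12.3 and 3.66 in libraries labelled BRCA1 wt (log2 fold change 0.087 ± 0.50, adjusted p = 0.904). A gene's total also takes in transcript outside a deleted part, so this level checks little, and the directions below go by the labels. The control library labelled wt 2 stood apart, with correlations over tested genes of 0.866 and 0.917 to the other 2, against 0.979 between those. The sums of scaled TPM also differed within the control group, at 1217651, 796668 and 1810667 in wt 1 to 3. In ko 1 to 3 they were 819962, 823502 and 843146.

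Of 44 members 10 were called, 5 higher and 5 lower in libraries labelled ko, when 14.3% of all genes were called, 9.04% higher and 5.27% lower. Equal sums moved the median of all genes by 0.50 log2 and gave 5 higher and 1 lower, beside 5.43% and 1.33% of all genes. Median-of-ratios scaling moved it by -0.21 and gave 5 higher and 7 lower, beside 7.14% and 7.6% of all genes. The members' median was -0.06, against 0.17 for all genes. The count was 0 without ko 1 (with 13 at an unadjusted p under 0.05), 1 without ko 2, 2 without ko 3, 1 without wt 1, 25 without wt 2 and 6 without wt 3. Of all genes, 0.268% were called higher and 0.195% lower without ko 1, 0.849% and 0.623% without ko 2, and 0.797% and 0.521% without ko 3. These shares were 1.48% and 0.335% without wt 1, 40.5% and 25.6% without wt 2, and 3.71% and 1.23% without wt 3. Cxcl14 and Ccr10, below 1 in wt-labelled libraries, were tested only in the 3 fits without a wt library, and Ackr1 and Il1rn only in the 3 without a ko library. Cxcl14 was called in its 3 fits, and its call was not tried without a ko library.

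Cxcl14 had 4.07, 4.0 and 2.84 in libraries labelled ko, against 0.694, 0.242 and 0.54 in libraries labelled wt (log2 fold change 1.64 ± 0.23, adjusted p = 0.00736). Il4ra, the IL-4 and IL-13 receptor chain, had 76.0, 100.3 and 52.2 in libraries labelled ko, against 20.8, 18.9 and 17.2 in libraries labelled wt (log2 fold change 1.91 ± 0.28, adjusted p = 0.00825). Il12rb1, the chain shared by the IL-12 and IL-23 receptors, had 6.19, 3.88 and 13.4 in libraries labelled ko, against 0.232, 1.33 and 0.609 in libraries labelled wt (log2 fold change 2.26 ± 0.44, adjusted p = 0.0224). The groups did not overlap in these genes, nor in the other 7 that were called. The share of all called genes without overlap is not given here. Ccr10, the CCL27 and CCL28 receptor, had 2.65, 3.26 and 2.56 in libraries labelled ko, against 0.385, 0.67 and 0.418 in libraries labelled wt (log2 fold change 1.36 ± 0.20, adjusted p = 0.0082). Il4 had 4.91, 4.63 and 4.52 in libraries labelled ko, against 0.987, 1.14 and 2.01 in libraries labelled wt (log2 fold change 1.28 ± 0.24, adjusted p = 0.0197).

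Ackr1, an atypical receptor that binds many inflammatory chemokines, had 0.112, 0.222 and 0.326 in libraries labelled ko, against 3.96, 2.5 and 4.23 in libraries labelled wt (log2 fold change -1.89 ± 0.23, adjusted p = 0.00477). Ackr4 had 3.5, 4.34 and 4.74 in libraries labelled ko, against 8.9, 11.5 and 9.4 in libraries labelled wt (log2 fold change -1.07 ± 0.23, adjusted p = 0.0322). Both atypical receptors were lower in every ko-labelled library. Il34, the second ligand of the CSF-1 receptor, had 8.83, 9.72 and 12.7 in libraries labelled ko, against 26.9, 24.9 and 29.4 in libraries labelled wt (log2 fold change -1.31 ± 0.23, adjusted p = 0.0171). Its groups too lay apart. Il10rb had 16.7, 15.2 and 15.8 in libraries labelled ko, against 32.9, 44.9 and 31.7 in libraries labelled wt (log2 fold change -1.13 ± 0.23, adjusted p = 0.0246). Il1rn had 0.362, 0.874 and 0.819 in libraries labelled ko, against 2.55, 2.65 and 1.66 in libraries labelled wt (log2 fold change -0.96 ± 0.23, adjusted p = 0.0413).

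Without ko 1, the highest adjusted p of 8 of these was reached: 0.0703 for Ackr1, 0.193 for Ackr4, 0.164 for Il10rb, 0.127 for Il12rb1, 0.205 for Il1rn, 0.154 for Il34, 0.155 for Il4 and 0.087 for Il4ra; that of Ccr10 was 0.0618 without wt 1. In equal-sum scaling Ackr4, Il10rb, Il1rn and Il34 were not called (adjusted p = 0.292, 0.317, 0.168 and 0.159), so the calls of these 4 depend on the scale of the values. By the authors' deposited table, 15 members had a q-value under 0.05, 9 of them among the 10 called here. The share of all genes under that q-value is not given here. The authors' log2 coefficients were 2.61 for Cxcl14 and -4.21 for Ackr1.

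**Figure D5:**
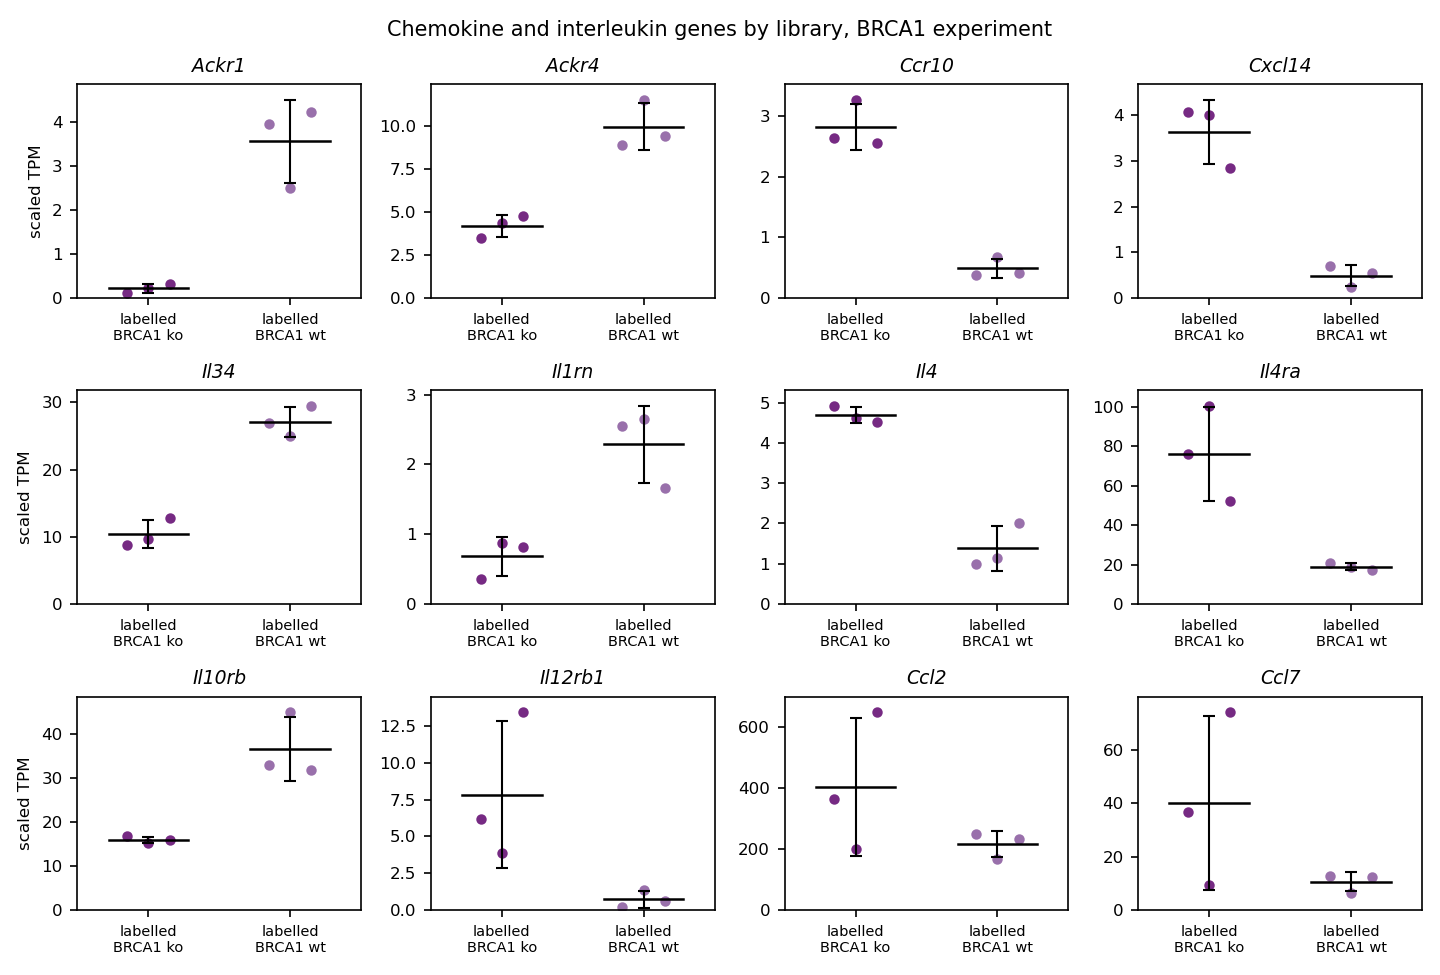
Scaled TPM of the 10 called members and of Ccl2 and Ccl7 in each library labelled BRCA1 ko and BRCA1 wt (points), with group means (lines) and 1 SD (bars, n = 3, drawn no lower than 0). Il4ra lies between 52.2 and 100.3 in ko-labelled libraries and between 17.2 and 20.8 in wt-labelled ones, while Ccl2 and Ccl7 spread widely in the ko-labelled group.

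Ccl2 had 363, 198 and 647 in libraries labelled ko, against 249, 168 and 233 in libraries labelled wt, and Ccl7 had 36.8, 9.42 and 73.9 in libraries labelled ko, against 12.7, 6.39 and 12.5 in libraries labelled wt. Both were highest in ko 3 and lowest of their group in library 2, and neither passed (adjusted p = 0.222 and 0.144). Cxcl12 had 35.9, 33.4 and 27.8 in libraries labelled ko, against 74.7, 108 and 45.5 in libraries labelled wt (log2 fold change -1.13 ± 0.33, adjusted p = 0.0589). Il18 had 34.1, 32.8 and 28.2 in libraries labelled ko, against 103, 40.5 and 145 in libraries labelled wt (log2 fold change -1.40 ± 0.45, adjusted p = 0.0698). These 2 did not pass in limma, although their groups did not overlap. In the authors' deposited table their q-values were under 0.05, at 0.000373 for Cxcl12 and 0.0453 for Il18.

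Of 39 pathway genes tested 6 were higher and 3 lower in libraries labelled ko, beside 9.04% and 5.27% of all genes. The 9 calls became 5 with equal sums, 1 without ko 1, 3 without ko 2 or ko 3, 1 without wt 1, 23 without wt 2 and 4 without wt 3. The shares of all genes called in these settings are given above. Pycard, the adaptor of inflammasomes that mature IL-18, had 0.201, 0.535 and 0.30 in libraries labelled ko, against 12.6, 7.12 and 17.2 in libraries labelled wt (log2 fold change -3.24 ± 0.33, adjusted p = 0.00275). Pycard passed the filter only through the libraries labelled wt, where it was high. Irak3, an inhibitor of IL-1 receptor signalling, had 10.4, 10.5 and 7.74 in libraries labelled ko, against 1.31, 2.19 and 1.16 in libraries labelled wt (log2 fold change 2.05 ± 0.26, adjusted p = 0.00533). Socs2 and the chemokine-binding receptor Ccrl2 changed by 2.24 ± 0.31 and 1.54 ± 0.25. Stat2 and Socs7 were also higher (1.74 ± 0.43 and 1.51 ± 0.40), and Cntfr and Gnai2 lower (-1.31 ± 0.26 and -0.91 ± 0.21). The leukocyte markers summed to 10.9 to 22.7 in libraries labelled ko and 13.3 to 29.5 in those labelled wt, and the ovarian surface markers to 2236 to 2487 and 2462 to 2604.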

How the data were processed

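The 24 RNA libraries of mOSE cells formed 8 groups of 3. Per the submitters' processing notes, kallisto 0.44.0 and sleuth 0.30.0 were used on GRCm38. For each experiment the authors deposited a table of signal named TPM, whose columns sum to 955433 to 1166749 (spheroids), 983449 to 1021026 (Snail) and 796668 to 1810667 (BRCA1); the signal is therefore called scaled TPM. The authors' deposited tests give each gene its p-value, q-value and natural log coefficient, converted here to log2; the p-values of the spheroid table cover 3 terms at once and were not used as calls. Depth is unknown, since no counts were used here, and no counting interval is given.

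The tests were made with limma 3.58.1 in R 4.3.3 (lmFit, eBayes with trend) on log2(scaled TPM + 1), for genes reaching 1 in 3 or more libraries of the table, all 12 spheroid-table libraries fitted together, adjusted p under 0.05, two-sided. The test had been planned for TPM and was kept for scaled TPM; it was tested on simulated data. Python 3.11.15 with pandas 2.3.3, numpy 2.4.6 and matplotlib 3.10.9 made tables and plots. Symbols with several identical rows (Il12rb1) were counted once, and 141 of 151 gene IDs were found in GENCODE M21. Promoters came from RefSeq (GRCm38.p6), with entries for 107 of the 143 symbols (not Ccl2 and Ccl7).

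Members called with an absolute log2 fold change of at least 1 were named with their values, others by change or count; also members with a mean of at least 20, and pathway genes called at 1 or more, of which some are counted but not reported here by name. Where a further gene is named, as for Cxcl2, it was chosen after its values were seen. The members, gene lists and tests were chosen with earlier results of these data known. Alternatives changed the scaling, the pseudocount (0.1, 5), the filter, the libraries fitted, library weights, the threshold (0.01) and a block for library numbers, and left out each library in turn; their use on the counts of pathway genes was chosen after seeing the data.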

Additional observations from a re-analysis of the deposited data

Results flagged for a closer look

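The TGFB1 change differed between spheroids and monolayers, by a test of the difference itself, for 20 members, out of 53 tested, when 15.8% of all genes were called in the same test. The values are log2 changes in spheroids minus those in monolayers. Those above 0 were Cxcl14 (5.67), Il11 (5.07), Il1a (4.26), Il23a (3.06), Cxcr4 (2.69), Il1rap (2.18), Il17ra (1.91), Il18rap (1.78), Ccr1 (1.65), Cxcr2 (1.21), Il1r1 (1.13), Il13ra1 (0.91), Il11ra1 (0.83), Il1rl2 (0.70) and Il4ra (0.39). Those below 0 were Ccl17 (-3.07), Cxcl12 (-2.96), Ackr4 (-2.94), Ccl9 (-1.30) and Il16 (-0.89). Groups of 3 libraries were not searched for single outlying values.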

How the results depend on the processing

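In the alternative settings no called member changed direction: 1681 of their values kept the call and 326 lost it. Of the counts of called members, those of the untreated cultures, of TGFB1 in spheroids and of the TGFB1 cultures stayed within 1.5 times of 26, 24 and 36 in all settings; without 1 library they were 20 to 24, 20 to 29 and 33 to 36. For TGFB1 in monolayers (10 calls) the count was 6 with no filter on low values, 23 with limma library weights, 5 with untreated monolayers 1 and 2 averaged and 5 at an adjusted p under 0.01. Without 1 library it was 4 to 6. Of all genes, 3.91% were called higher and 3.14% lower with no filter, and 25.2% and 22.4% with library weights. These shares were 5.44% and 4.28% with the 2 monolayers averaged, and 4.06% and 2.95% at 0.01. For the interaction (20) it was 11 with those monolayers averaged, 8 at 0.01, and 10 to 21 without 1 library. Of all genes, 6.65% were called positive and 4.74% negative with the averaging, and 3.88% and 2.64% at 0.01. Without 1 library these shares were 5.33% to 10.8% and 4.44% to 9.11%. For Snail (1) it was 0 with equal sums, no filter or at 0.01, 3 with library weights, 3 by the authors' deposited q-values, and 0 to 1 without 1 library. By limma 7 to 12 members had an unadjusted p under 0.05 in the settings with a count of 0. Library weights called 0.866% of all genes higher and 1.53% lower. The share of all genes under the authors' q-value is not given here. For BRCA1 (10) it was 6 with equal sums, 40 with library weights, 4 at 0.01, and 0 to 25 without 1 library. Of all genes, 5.43% were called higher and 1.33% lower with equal sums, and 53.6% and 36.7% with library weights. At 0.01 these shares were 2.06% and 0.783%, and without wt 2, where 25 members were called, 40.5% and 25.6%. The cause of these differences between settings was not tested. The authors' q-values were not tried for the spheroid table, whose test covers 3 terms.

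Between libraries with the same number, correlations of deviations ran from -0.32 to 0.33 and were above 0.1 in only some pairs. Libraries with different numbers were not compared in this way, so whether a number marks a shared culture or day was not tested. With a replicate block the counts were 22 for the untreated cultures, 8 for TGFB1 in monolayers, 23 for TGFB1 in spheroids, 37 for the TGFB1 cultures, 15 for the interaction, 0 for Snail (9 at an unadjusted p under 0.05 by limma) and 4 for BRCA1. The block called 7.68% of all genes higher and 7.08% lower for TGFB1 in monolayers, and 2.45% and 0.939% for BRCA1. For the interaction it called 7.65% positive and 5.87% negative. Depth is unknown, which limits low genes most.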
